A study of Mus musculus with 18 samples.

Results

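Collagens are the proteins of the extracellular matrix that wind several alpha chains into a rope-like helix, and each chain has a gene of its own. The 44 genes described here, out of 55385 counted, are all those with a given form of symbol. In the authors' deposited P21 table that form is Col, number, a, number. The rule reads the symbol and not the level, but the family and the lists used below were chosen with earlier results of these data known. In brain, fibril-forming collagens such as types I, III and V are made mainly by fibroblasts of the meninges and around larger vessels. Type IV chains form the network of the basement membrane under endothelium and pia. A few collagens are made by neurons, among them the transmembrane collagen XXV and, in mouse, the interneuron collagen XIX. The members were grouped by how the protein assembles: 6 interstitial fibrillar genes, 5 cartilage-type and minor fibrillar genes, 6 genes of the basement membrane network, 3 of the zone around it, 6 beaded filament genes, 3 hexagonal network genes, 8 FACIT genes (collagens that decorate fibrils), 5 neural and transmembrane genes, and 2 others.

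The samples were hippocampi of C57BL/6 mice with an Arid1a conditional knockout (cKO) or of wild type (WT). Arid1a encodes a subunit of the BAF chromatin remodelling complex. PolyA RNA was sequenced from 2 cKO and 2 WT libraries at postnatal day 21 (P21, 3 weeks) and from 3 cKO and 3 WT libraries at embryonic day 16.5 (E16.5). Chromatin immunoprecipitation sequencing (ChIP-seq) was done at 3 weeks, in a single library for each genotype and mark: H3K4me3 and H3K27ac, found at active promoters, and H3K27me3, the mark of Polycomb repression. Neither the Cre driver, the deleted exons nor the cells in which Arid1a was lost are given in the labels, and whether WT animals carried Cre or floxed alleles is not stated either.

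Estimated counts summed to between 20089631 and 20332148 in P21 libraries and between 17662335 and 19760764 in E16.5 libraries. CPM are counts scaled to the library size after TMM adjustment. Arid1a had 2281 and 1778 counts in cKO and 4291 and 4089 in WT at P21, and 3210, 3100 and 3527 in cKO and 4983, 5489 and 5560 in WT at E16.5. Summed hippocampal markers lay between 1506 and 1878 CPM at P21 and between 2210 and 2981 CPM at E16.5, with no marker at 0 in any library. Such a sum follows its most counted members. The mean log2 CPM of these markers was 4.90, 5.79 and 5.79 in cKO and 6.07, 5.98 and 6.04 in WT at E16.5. It was 5.99 and 6.05 in cKO and 6.44 and 6.38 in WT at P21. E16.5 cKO replicate 1 had the lowest mean but the highest sum of the E16.5 cKO libraries, and the cause was not tested. At P21, 3 of 12 hippocampal markers were lower and 1 higher in cKO, and 4 of 10 striatal markers were higher, where edgeR called 3.91% of all genes lower and 2.81% higher. These counts moved when a library was left out, a fit with 1 library in that genotype. Tissue was dissected in bulk, so fewer cells of a type and less RNA per cell cannot be told apart. Levels are compared between libraries and not between genes, because no transcript lengths were used. Changes are log2 ratios of cKO to WT, each with a standard error (SE) that is approximate, and a gene is called at an adjusted p under 0.05 over all genes tested.

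At P21, 3 collagen genes fell in cKO and 1 rose, and all 4 encode fibril-forming chains. Those that fell were Col11a2 and Col27a1, fibrillar chains prominent in cartilage, and Col3a1, the chain of type III collagen that accompanies type I in loose connective tissue. Col5a3, the third chain of type V collagen, which takes part in setting fibril diameter, rose. Of the 44 members 40 were tested, and edgeR called 3.91% of all 17407 tested genes lower and 2.81% higher, against 3 lower and 1 higher of the 40 collagens. At an unadjusted p below 0.05 edgeR had 6 collagens lower and 4 higher, against 13.2% and 11.7% of all genes. The 4 members not tested were Col2a1, Col10a1, Col17a1 and Col28a1, which had at most 22 counts in any P21 library. The collagens' median change was 0.18, against 0.01 over all genes tested.

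Col11a2 had 12.9 and 11.0 CPM in the cKO libraries (267 and 219 counts), against 30.7 and 28.4 CPM in the WT libraries (613 and 566 counts). Both cKO libraries were far below both WT libraries. The log2 change was -1.31 (SE 0.14, edgeR adjusted p = 0.00371), and Col11a2 was called under each of the 10 alternatives run at P21. Col27a1 had 5.40 and 3.56 CPM in cKO and 9.97 and 8.82 CPM in WT (log2 change -1.07, SE 0.24, edgeR adjusted p = 0.0421). Col3a1 had 3.86 and 3.91 CPM in cKO and 6.86 and 7.52 CPM in WT (log2 change -0.89, SE 0.21, edgeR adjusted p = 0.0454). In neither gene did the genotypes overlap. Col5a3 had 5.16 and 8.22 CPM in cKO (107 and 164 counts) and 2.204 and 2.91 CPM in WT (44 and 58 counts) (log2 change 1.39, SE 0.30, edgeR adjusted p = 0.0377). Its cKO libraries differed between themselves by more than the WT libraries, and both lay above WT. Each of these 3 calls was lost without WT replicate 1 and without WT replicate 2, and that of Col5a3 also without cKO replicate 2. Such a fit has 1 library in a genotype, so a lost call cannot be told apart from lost power. With a library left out the estimates ran from -1.40 to -0.80 for Col27a1, -0.96 to -0.83 for Col3a1 and 1.01 to 1.68 for Col5a3. Without cKO replicate 1 Col4a1 was also called higher and Col15a1 lower. Without cKO replicate 2 Col6a5, Col8a1, Col9a3 and Col12a1 were called higher and Col16a1 lower, but Col6a5, Col8a1 and Col9a3 had negative estimates without cKO replicate 1 (-0.45, -0.53 and -0.43). Calls were also lost with no library left out. In the joint fit of all 10 RNA libraries Col11a2 was the only collagen called at P21, and with a block for replicate number Col3a1 was not called. Upper-quartile scaling lost Col27a1 and Col3a1 (edgeR adjusted p of 0.0533 and 0.0551). DESeq2 called Col5a3 higher and Col11a2 and Col27a1 lower (3.1% and 5.45% of all genes), but not Col3a1 (adjusted p = 0.0852). In the authors' deposited table the same 3 genes were called (1.53% of all genes higher and 2.65% lower).

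**Figure D1:**
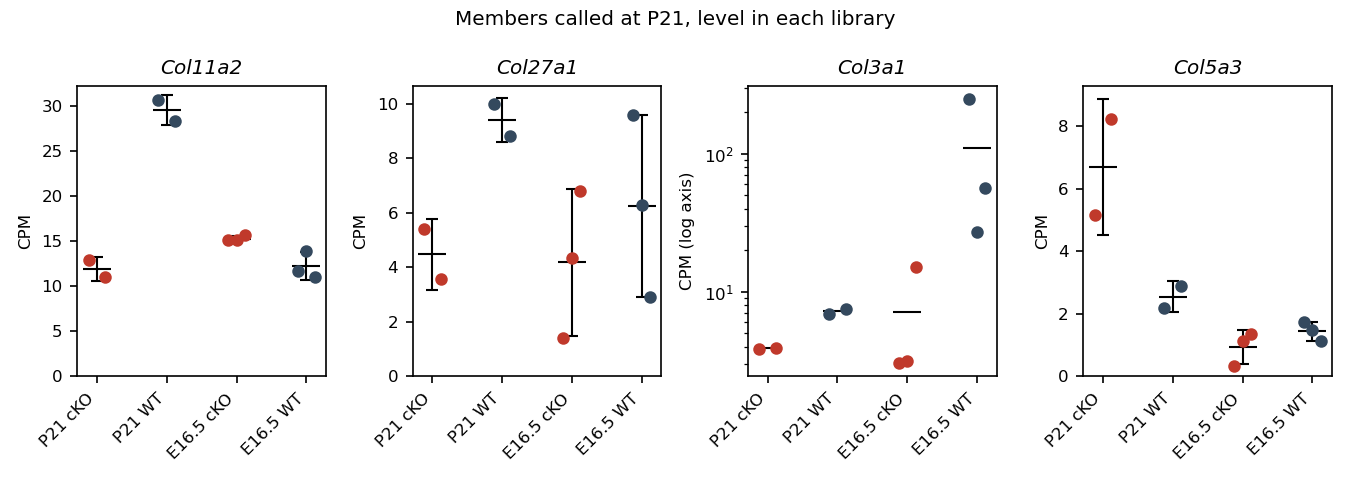
Level in each library, in CPM, of the 4 collagen genes called at P21, with cKO (red) left of WT (dark blue) at each age; the horizontal bar is the mean, with its SD except for Col3a1, whose axis is logarithmic. At P21 the 2 cKO libraries lie below both WT libraries for Col11a2, Col27a1 and Col3a1 and above them for Col5a3, and at E16.5 Col11a2 lies at 15.1 to 15.6 CPM in cKO and 11.0 to 14.0 CPM in WT.

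The start regions of these 4 genes differ in base composition, and they are shown because the histone marks described further on were read around them. Each is the RefSeq window of 250 bases before and 50 after the start, on the gene's own strand and from build GRCm38.p6. Capitals mark 3 motifs read on either strand. The first is TATAAA, a form of the TATA box. Another is the CCAAT box. The last is the GC box, spelled GGGCGG, and no match overlapped another in the windows shown.
Col11a2, chr17:34038888-34039187, plus strand: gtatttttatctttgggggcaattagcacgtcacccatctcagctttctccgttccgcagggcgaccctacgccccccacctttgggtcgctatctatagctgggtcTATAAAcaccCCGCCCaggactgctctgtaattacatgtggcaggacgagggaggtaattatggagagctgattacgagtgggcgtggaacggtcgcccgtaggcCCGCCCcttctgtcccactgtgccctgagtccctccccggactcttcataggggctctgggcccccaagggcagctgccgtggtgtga
Col27a1, chr4:63215162-63215461, plus strand: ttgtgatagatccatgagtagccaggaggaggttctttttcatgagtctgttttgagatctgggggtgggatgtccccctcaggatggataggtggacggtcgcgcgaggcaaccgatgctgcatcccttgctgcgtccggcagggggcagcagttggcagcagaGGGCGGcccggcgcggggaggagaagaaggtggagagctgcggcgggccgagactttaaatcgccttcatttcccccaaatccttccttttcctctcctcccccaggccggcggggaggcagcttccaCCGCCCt
Col3a1, chr1:45311288-45311587, plus strand: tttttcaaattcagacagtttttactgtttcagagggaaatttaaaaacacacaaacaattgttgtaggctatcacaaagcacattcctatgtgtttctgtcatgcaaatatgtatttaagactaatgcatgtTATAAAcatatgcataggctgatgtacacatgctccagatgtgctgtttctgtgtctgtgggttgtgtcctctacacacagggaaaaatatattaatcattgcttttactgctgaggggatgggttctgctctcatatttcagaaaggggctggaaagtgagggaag
Col5a3, chr9:20815018-20815317, minus strand: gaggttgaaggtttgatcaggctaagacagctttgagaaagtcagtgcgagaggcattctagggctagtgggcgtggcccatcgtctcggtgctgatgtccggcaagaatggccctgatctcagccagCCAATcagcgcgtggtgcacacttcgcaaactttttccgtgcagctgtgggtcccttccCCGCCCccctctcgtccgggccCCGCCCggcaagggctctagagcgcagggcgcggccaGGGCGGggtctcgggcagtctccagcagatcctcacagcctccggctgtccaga
Col11a2 holds TATAAA 143 bases before the start and 16 CpG dinucleotides, Col27a1 holds 18 CpG and Col5a3 holds 20. The Col3a1 window has 37.7% G and C and no CpG, with TATAAA 117 bases before the start. Over the 38 windows matched to 35 of the members, TATAAA occurs in 13.2%, CCAAT in 34.2% and GGGCGG in 60.5%, against 12.8%, 37.8% and 41.7% of all 25580 windows of the same length. The median number of CpG was 11.5 in collagen windows and 10 in all windows.

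By class at P21, the cartilage-type and minor fibrillar genes had the lowest median, -0.91, with all 4 tested members negative. Col11a1, the partner chain of Col11a2 in type XI collagen, had 4.63 and 5.62 CPM in cKO and 7.06 and 10.2 CPM in WT, without overlap (log2 change -0.75, SE 0.24, edgeR adjusted p = 0.106). Col2a1, the main cartilage chain, was not tested, with 9 and 22 counts in cKO and 10 and 3 counts in WT. Among skeletal and cartilage markers 2 of 7 tested were higher in cKO and none lower, where edgeR called 2.81% of all genes higher and 3.91% lower. Matn1, a cartilage matrix protein, had 9.26 and 12.4 CPM in cKO against 0.300 and 0.301 CPM in WT. The other was the transcription factor Sox9 (0.79), whose call depended on the WT libraries kept (0.71 without WT replicate 2, a fit with 1 WT library). Which cells these markers came from was not tested. Chains of types I, IV and VI were not called, unlike Col3a1 of type III and Col5a3 of type V. The other type V chains, Col5a1 (-0.05, SE 0.28, edgeR adjusted p = 0.934) and Col5a2 (-0.01, SE 0.23, edgeR adjusted p = 0.984), were not called either and overlapped between genotypes. Col1a1 had 30.5 and 32.5 CPM in cKO and 35.0 and 32.6 CPM in WT (log2 change -0.10, SE 0.12, edgeR adjusted p = 0.637). Its partner chain Col1a2 had 22.3 and 18.3 CPM in cKO and 17.3 and 17.4 CPM in WT (0.22, SE 0.15, edgeR adjusted p = 0.385). The changes of the type I chains had opposite signs.

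All 6 beaded filament genes had positive changes, with a median of 0.70 and none called, and 3 of them were higher without overlap, where 28.2% of all tested genes were. Without cKO replicate 1 the estimates were positive for 4 of the 6, with a median of 0.22. Col6a1, a core chain of type VI collagen, had 16.7 and 19.5 CPM in cKO and 17.1 and 16.0 CPM in WT. In the basement membrane network 5 of 6 changes were positive, with a median of 0.29, against 3 of 6 and a median of -0.04 without cKO replicate 1. Col4a1, which with Col4a2 forms the basement membrane of most vessels, had 92.2 and 115 CPM in cKO and 89.2 and 71.5 CPM in WT (0.37, SE 0.15, edgeR adjusted p = 0.186). Col4a2 had 98.2 and 113 CPM in cKO and 96.5 and 81.7 CPM in WT (0.25, SE 0.13, edgeR adjusted p = 0.273). These genes lie head to head with starts 21 bp apart and overlap by 85 bp, so reads in the shared part cannot be told apart where counting ignored strand. Col18a1, whose fragment is endostatin, had 7.71 and 5.62 CPM in cKO and 5.96 and 4.96 CPM in WT. Among neural and transmembrane collagens none of 4 tested was called. Col25a1, known as a component of amyloid plaques in human brain, had 87.8 and 98.7 CPM in cKO and 69.6 and 100.4 CPM in WT. Col19a1, which in mouse takes part in forming inhibitory synapses of the hippocampus, had 3.90 and 4.11 CPM in cKO and 3.46 and 3.31 CPM in WT (0.24, SE 0.24, edgeR adjusted p = 0.569). Col23a1, a transmembrane collagen, had 11.4 and 9.33 CPM in cKO and 6.61 and 9.28 CPM in WT.

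Over the tested collagens the genotypes did not overlap for 12 higher and 10 lower, where 28.2% and 27.9% of all tested genes stood apart in those directions. One library stood out at P21. The cKO replicate 1 held the highest level of 20 of the 44 collagens, and its choroid plexus markers summed to 3652 CPM, against 1047 CPM in cKO replicate 2 and 1445 and 1213 CPM in WT. Without it the collagens' median change was -0.11 in place of 0.18. Among the genes highest in that library, chosen after their values were seen, was Col8a1, a hexagonal network chain, at 13.8 and 4.96 CPM in cKO and 6.86 and 7.52 CPM in WT. Col9a3, a FACIT chain, had 47.7 and 17.9 CPM in cKO and 26.2 and 21.8 CPM in WT. Of 10 choroid plexus markers edgeR called 0, as did DESeq2, with 0 at an unadjusted p below 0.05. edgeR called some of them lower in cKO without cKO replicate 1 and some higher without cKO replicate 2, each a fit with 1 cKO library. The part of choroid plexus in these values was not tested. Summed meningeal fibroblast markers were 708 and 613 CPM in cKO and 405 and 505 CPM in WT, and 1 of 14 was called, Slc6a20a, with 45.4 and 32.6 CPM in cKO and 15.1 and 17.4 CPM in WT (edgeR adjusted p = 0.0102). Endothelial markers summed to 246 and 214 CPM in cKO and 206 and 186 CPM in WT. Of 10, Pecam1 and Cldn5 were called higher and Tek lower. Over all genes tested edgeR called 2.81% higher and 3.91% lower. The endothelial calls depended on which libraries were kept. Without WT replicate 2, a fit with 1 WT library, the estimates were 0.62 for Pecam1, 0.67 for Cldn5 and -0.97 for Tek. With all P21 libraries they were 0.66, 0.86 and -0.89. Of 10 pericyte and smooth muscle markers edgeR called 0 (1 higher and 1 lower at an unadjusted p below 0.05, and 0 by DESeq2), the closest being Atp13a5 (-0.53, SE 0.16, edgeR adjusted p = 0.0990). Of 10 interneuron markers edgeR also called 0 (2 higher and 2 lower at an unadjusted p below 0.05, and 1 higher by DESeq2). Over all genes tested 11.7% were higher and 13.2% lower at an unadjusted p below 0.05 by edgeR, and DESeq2 called 3.1% higher and 5.45% lower. The part of these cell types in the collagen levels was not tested.

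**Figure D2:**
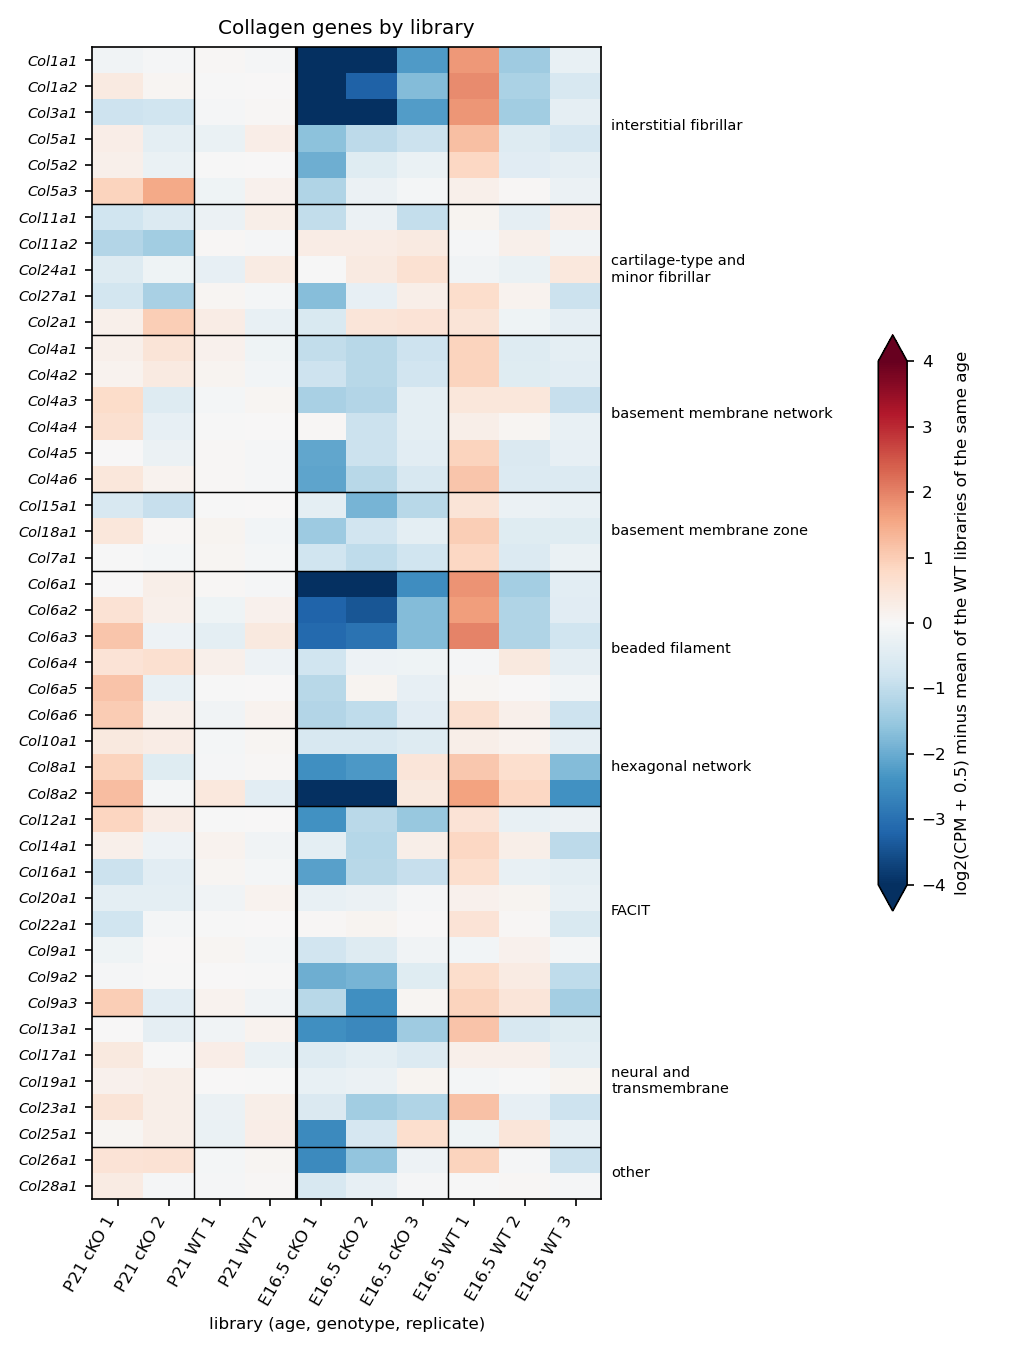
Level of each of the 44 collagen genes in each RNA library, as log2(CPM + 0.5) minus the mean of the WT libraries of the same age, with genes grouped by class and cKO left of WT at each age; values past the ends of the colour scale take its end colours. At E16.5 WT replicate 1 is the highest library for 33 genes and cKO replicate 1 the lowest for 30, whereas P21 libraries differ less.

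The enzymes and partners that build, cut and bind collagen were read from lists of known roles. The lists were drawn up with earlier results of these data known, so the all-gene shares beside their counts are description and no test. At P21 6 of the partner genes rose in cKO and 2 fell, of 72 tested. Over all tested genes 2.81% were called higher and 3.91% lower. Lox, the enzyme that cross-links collagen and elastin, had 5.25 and 3.31 CPM in cKO and 0.801 and 0.852 CPM in WT (log2 change 2.36, SE 0.35, edgeR adjusted p = 0.0116). Adamts14, a protease that removes the amino-terminal propeptide of fibrillar procollagens, had 4.19 and 5.57 CPM in cKO and 1.30 and 1.20 CPM in WT (1.96, SE 0.29, edgeR adjusted p = 0.0117). These were the 2 called, both higher, of 13 tested genes for cleavage and cross-linking, and both were called with each library left out in turn. Of 20 genes for chain modification and folding, Fkbp10, a chaperone of procollagen, was higher (0.95, SE 0.17, edgeR adjusted p = 0.0213) and P4ha3, a subunit of prolyl 4-hydroxylase, was lower (-1.55, SE 0.32, edgeR adjusted p = 0.0318). Of 7 tested genes of collagen breakdown, the metalloproteinase inhibitors Timp2 (0.85, SE 0.12) and Timp3 (0.46, SE 0.11) were higher, with edgeR adjusted p of 0.01002 and 0.0484. Of 14 basement membrane partners Lamb2, a laminin chain, was higher (0.87, SE 0.11, edgeR adjusted p = 0.00735). Of 9 tested fibril-associated proteoglycans Bgn, or biglycan, was lower (-0.76, SE 0.14, edgeR adjusted p = 0.0199). The other 6 calls did not hold with each library left out. Those of Fkbp10, Timp3 and Bgn were lost without WT replicate 1 and without WT replicate 2, and those of P4ha3, Timp2 and Lamb2 without WT replicate 2. Such a fit has 1 WT library, so a lost call cannot be told apart from lost power. Without WT replicate 2 the estimates were 0.91 for Fkbp10, 0.43 for Timp3, -0.84 for Bgn, -1.33 for P4ha3, 0.82 for Timp2 and 0.78 for Lamb2. Of 9 tested collagen receptors edgeR called 0 and DESeq2 0, with 2 lower at an unadjusted p below 0.05, where 13.2% of all genes were. The closest was the integrin chain Itga11 (-1.07, SE 0.33, edgeR adjusted p = 0.0945). With cKO replicate 1 left out edgeR called receptors in both directions, and with cKO replicate 2 left out higher, each a fit with 1 cKO library.

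At E16.5 most collagens had lower estimates in cKO, yet edgeR called 0 of the 38 tested (0.112% of all genes were called lower and 0.0118% higher), and the WT libraries differed severalfold among themselves. The estimates were negative for 36 of 38, with a median of -1.13 against -0.01 over all genes tested. At an unadjusted p below 0.05 edgeR had 16 lower and 1 higher (against 11.5% and 9.13% of all 16958 genes tested). The genotypes did not overlap for 16 lower and 1 higher, where 15.3% and 14.0% of all tested genes stood apart in those directions. DESeq2 on the same counts called 10 lower and 0 higher, where it called 4.5% of all genes lower and 2.22% higher. The authors' deposited table also called 10 lower and 0 higher, against 2.14% and 1.05% of all genes in that table. Both gave the same genes: Col1a1, Col1a2, Col3a1, Col5a1, Col6a1, Col6a2, Col6a3, Col12a1, Col13a1 and Col16a1.

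The 6 members not tested at E16.5 were Col6a4, Col6a6, Col10a1, Col17a1, Col24a1 and Col28a1. The largest estimates were in the interstitial fibrillar and beaded filament classes. Col1a1 had 3.42, 5.20 and 21.2 CPM in cKO, against 343, 38.1 and 83.2 CPM in WT. Every cKO library was below every WT library, and WT replicate 1 was itself many times above the other WT libraries. The log2 change was -3.95 with an SE of 1.10 (edgeR adjusted p = 0.167, DESeq2 adjusted p = 0.0126). Col1a2 had 3.70, 9.22 and 26.8 CPM in cKO and 336, 37.5 and 58.5 CPM in WT. Col3a1 had 3.03, 3.17 and 15.0 CPM in cKO and 248, 27.2 and 56.3 CPM in WT (log2 change -3.95, SE 1.09, edgeR adjusted p = 0.167). Col6a1 had 0.168, 0.622 and 3.55 CPM in cKO (3, 11 and 71 counts) and 78.7, 8.32 and 16.5 CPM in WT (1497, 162 and 322 counts) (log2 change -4.54, SE 1.27, edgeR adjusted p = 0.169). In all of these the libraries stood in 1 order: cKO replicate 1 lowest, then cKO 2 and 3, then WT 2, WT 3 and WT 1.

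Basement membrane collagens spread less. Col4a1 had 117, 108 and 133 CPM in cKO and 436, 164 and 180 CPM in WT (log2 change -1.12, SE 0.39, edgeR adjusted p = 0.204). Col4a2 had 102, 83.5 and 107 CPM in cKO and 340, 130 and 137 CPM in WT (-1.05, SE 0.40, edgeR adjusted p = 0.221). For both the genotypes did not overlap. Col18a1 had 14.7, 23.8 and 31.0 CPM in cKO and 81.0, 29.1 and 29.0 CPM in WT, and overlapped. Among the cartilage-type chains Col2a1 had 21.03, 45.4 and 47.4 CPM in cKO and 46.6, 28.8 and 25.1 CPM in WT (0.18, SE 0.37, edgeR adjusted p = 0.801). Col11a2 had 15.1, 15.1 and 15.6 CPM in cKO and 11.7, 14.0 and 11.0 CPM in WT, the 1 member higher in cKO without overlap (0.32, SE 0.12, edgeR adjusted p = 0.217). Col11a1 had 12.5, 21.2 and 12.9 CPM in cKO and 27.2, 19.4 and 30.2 CPM in WT (-0.72, SE 0.26, edgeR adjusted p = 0.213). Among neural collagens Col25a1 had 0.393, 2.77 and 7.80 CPM in cKO and 4.10, 6.83 and 3.74 CPM in WT (-0.42, SE 0.89, edgeR adjusted p = 0.807). Col19a1 had 0.841, 0.905 and 1.30 CPM in cKO and 1.05, 1.13 and 1.28 CPM in WT, and Col23a1 had 7.12, 3.85 and 4.45 CPM in cKO and 25.5, 8.53 and 5.90 CPM in WT. All 3 overlapped between genotypes.

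Markers of meningeal fibroblasts and vessels were also highest in WT replicate 1. Interstitial fibrillar genes summed to 26.0, 51.5 and 102 CPM in cKO and 1045, 144 and 238 CPM in WT, a sum that follows its most counted members. Meningeal fibroblast markers summed to 59.4, 76.2 and 193 CPM in cKO and 2225, 305 and 285 CPM in WT, with 2 of 14 markers at 0 in cKO replicates 1 and 2 each and none at 0 elsewhere. Of the 12 meningeal markers tested edgeR called 0, with 11 lower at an unadjusted p below 0.05 and 7 lower by DESeq2 (11.5% and 4.5% of all genes). Beaded filament genes summed to 3.81, 5.20 and 15.9 CPM in cKO and 220, 27.1 and 43.6 CPM in WT. Endothelial markers summed to 140, 139 and 154 CPM in cKO and 446, 192 and 195 CPM in WT, and the basement membrane network to 227, 205 and 260 CPM in cKO and 829, 315 and 337 CPM in WT. Without WT replicate 1 the collagens' median change was -0.56 in place of -1.13, edgeR again called 0, and 16 of 38 stood apart lower, where 19.3% of all genes did (a count chosen after seeing the data). The part of meningeal and vascular tissue in the E16.5 differences was not tested.

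Hexagonal network collagens, named after their values were seen, followed another order. Col8a2 had 0.112, 0.283 and 21.04 CPM in cKO and 48.9, 28.5 and 2.51 CPM in WT. Col8a1 had 0.0561, 0.113 and 3.75 CPM in cKO and 5.84, 4.26 and 0.410 CPM in WT. The genotypes overlapped for both, with cKO replicate 3 above WT replicate 3. Choroid plexus markers summed to 7.12, 44.6 and 2568 CPM in cKO and 4947, 3319 and 29.2 CPM in WT, and Ttr, the transthyretin of choroid plexus, to 0.953, 27.1 and 2336 CPM in cKO and 4566, 3070 and 16.3 CPM in WT. The FACIT chain Col9a3 had 24.7, 9.39 and 57.4 CPM in cKO and 99.8, 76.4 and 20.6 CPM in WT, again with cKO replicate 3 above WT replicate 3. The part of choroid plexus in these values was not tested.

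**Figure D3:**
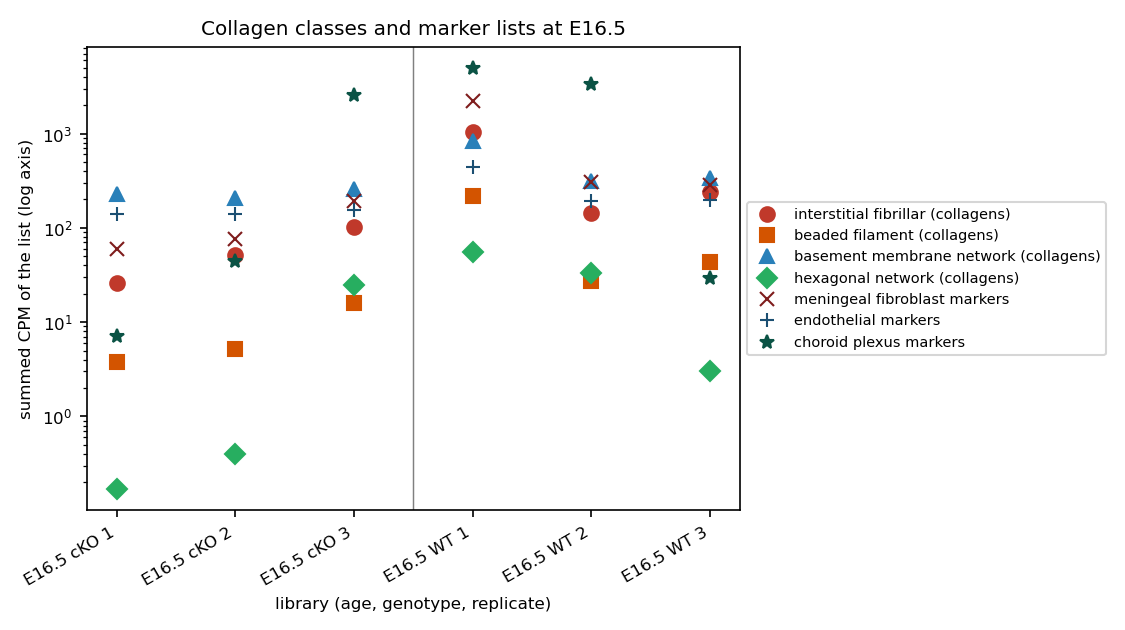
Summed CPM (log axis) of 4 collagen classes and 3 marker lists in each E16.5 library, cKO left and WT right of the line. Fibrillar and beaded filament collagens and meningeal markers peak in WT replicate 1, whereas hexagonal collagens and choroid plexus markers are high in cKO replicate 3 and WT replicates 1 and 2.

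The partner genes gave no call at E16.5 either. Of 20 modification genes, 12 cleavage and cross-linking genes, 10 receptors, 7 breakdown genes, 14 basement membrane partners and 6 proteoglycans tested, edgeR called 0, with 8, 6, 4, 4, 8 and 3 lower and 0, 1, 0, 0, 0 and 0 higher at an unadjusted p below 0.05. DESeq2 called 3, 3, 2, 3, 5 and 1 of them lower and 1 higher, in the cleavage list. Over all genes tested 11.5% were lower and 9.13% higher at an unadjusted p below 0.05 by edgeR. DESeq2 called 4.5% of all genes lower and 2.22% higher. P4ha3 came closest, at 1.01, 1.07 and 1.90 CPM in cKO and 12.6, 8.37 and 9.64 CPM in WT (log2 change -2.93, SE 0.32, edgeR adjusted p = 0.0507). Its WT replicate 1 was close to the other WT libraries, unlike that of the fibrillar chains. Lox, which had risen at P21, had 0.168, 0.283 and 2.55 CPM in cKO and 38.9, 4.06 and 3.08 CPM in WT (-3.90, SE 1.43, edgeR adjusted p = 0.214). Of 10 endothelial, 10 pericyte and smooth muscle, 9 choroid plexus, 10 striatal, 12 hippocampal, 5 skeletal and cartilage and 8 interneuron markers tested edgeR also called 0, with 8, 5, 0, 1, 3, 1 and 2 lower and 1 striatal marker higher at an unadjusted p below 0.05. DESeq2 called 2, 2, 0, 0, 3, 0 and 1 of them lower and 1 striatal marker higher.

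One collagen changed its cKO effect between the ages. In a fit of all 10 libraries the effect on Col11a2 at P21 minus that at E16.5 was -1.67 (SE 0.18, edgeR adjusted p = 0.0137), since its cKO libraries lay below WT at P21 and above WT at E16.5. It was the only one called of 41 collagens, where 0.738% of all 18979 genes were called lower and 0.427% higher. The call was lost without P21 cKO replicate 2 (adjusted p = 0.0630), P21 WT replicate 1 (0.0690) or P21 WT replicate 2 (0.0551), while the estimate stayed between -1.78 and -1.58 over all libraries left out in turn. Collagen differences were positive for 35 of 41, with a median of 1.39, and 10 were higher and 1 lower at an unadjusted p below 0.05 (9.57% and 10.5% of all genes). DESeq2 also called Col4a1 (1.39, adjusted p = 0.0494) and Col12a1 (2.24, adjusted p = 0.00361), both with a higher effect at P21, where it called 2.65% of all genes higher and 4.86% lower. Among the partner genes Timp2 was called, with 471 and 565 CPM in cKO and 292 and 284 CPM in WT at P21, and 184, 212 and 261 CPM in cKO and 366, 351 and 311 CPM in WT at E16.5. Its cKO libraries stood above WT at P21 and below WT at E16.5, and the difference of effects was 1.45 (SE 0.21, edgeR adjusted p = 0.0296). The call was lost without any 1 of 6 libraries: P21 cKO replicate 2 (0.0892), P21 WT replicate 1 (0.116) or 2 (0.111), E16.5 cKO replicate 2 (0.0776), and E16.5 WT replicate 1 (0.0557) or 2 (0.0719).

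Between WT hippocampus at P21 and at E16.5, 4 collagens were higher at P21 and 12 lower, of 41 tested, where edgeR called 27.8% of all genes higher and 32.6% lower. The median change was -0.998, against -0.12 over all genes. The all-gene median was -0.02 with DESeq2's size factors and -0.15 with upper-quartile scaling, so changes of that size have no set direction. Age cannot be told apart from the run that made each table. Levels in this comparison are CPM scaled over the 10 libraries together.

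The 4 collagens higher at P21 included Col25a1 and Col19a1, both known from neurons. Col25a1 had 75.4 and 108 CPM in P21 WT and 3.89, 6.44 and 3.57 CPM in E16.5 WT (log2 change 4.30, SE 0.70, edgeR adjusted p = 0.000856). Col19a1 had 3.75 and 3.55 CPM in P21 WT and 0.997, 1.07 and 1.22 CPM in E16.5 WT (1.73, SE 0.26, edgeR adjusted p = 0.000371). Neither gene overlapped between ages. Col11a2 had 33.3 and 30.4 CPM in P21 WT and 11.1, 13.2 and 10.5 CPM in E16.5 WT (1.46, SE 0.12, edgeR adjusted p = 1.1e-05). Col20a1, a FACIT chain, had 4.18 and 5.16 CPM in P21 WT and 2.84, 2.71 and 1.96 CPM in E16.5 WT (0.90, SE 0.24, edgeR adjusted p = 0.0101). In none of the 4 was E16.5 WT replicate 1 set apart from the other E16.5 WT libraries.

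The collagens lower at P21 included Col2a1, the main cartilage chain. It had 0.543 and 0.161 CPM in P21 WT and 44.2, 27.1 and 24.0 CPM in E16.5 WT, the largest change of the family (-6.47, SE 0.70, edgeR adjusted p = 7.08e-05). Col26a1 had 2.23 and 2.47 CPM in P21 WT and 75.1, 38.3 and 22.02 CPM in E16.5 WT (-4.26, SE 0.85, edgeR adjusted p = 0.00262). Col3a1 (-3.76, SE 1.11), Col5a1 (-1.68, SE 0.61) and Col5a2 (-2.01, SE 0.59) were the interstitial fibrillar genes called, with adjusted p of 0.0180, 0.0409 and 0.0170. Col1a1, at 38.0 and 34.9 CPM in P21 WT and 325, 35.9 and 79.4 CPM in E16.5 WT, overlapped and was not called (-2.01, SE 0.996, edgeR adjusted p = 0.114). In the basement membrane Col18a1 fell to 6.46 and 5.32 CPM in P21 WT, against 76.8, 27.5 and 27.7 CPM in E16.5 WT (-2.90, SE 0.56, edgeR adjusted p = 0.00219). Col4a1 had 96.7 and 76.6 CPM in P21 WT and 413, 154 and 171 CPM in E16.5 WT (-1.51, SE 0.41, edgeR adjusted p = 0.0126). Col4a6 (-2.73, SE 0.71), the FACIT genes Col12a1 (-2.30, SE 0.45), Col9a2 (-1.79, SE 0.62) and Col22a1 (-1.51, SE 0.38), and Col11a1 (-1.39, SE 0.30) were also lower, with adjusted p between 0.00216 and 0.0335. The counts moved with the libraries: without E16.5 WT replicate 1 the median was -0.46 and 11 were lower, and without P21 WT replicate 1 or 2 the number lower was 7 or 5.

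**Figure D4:**
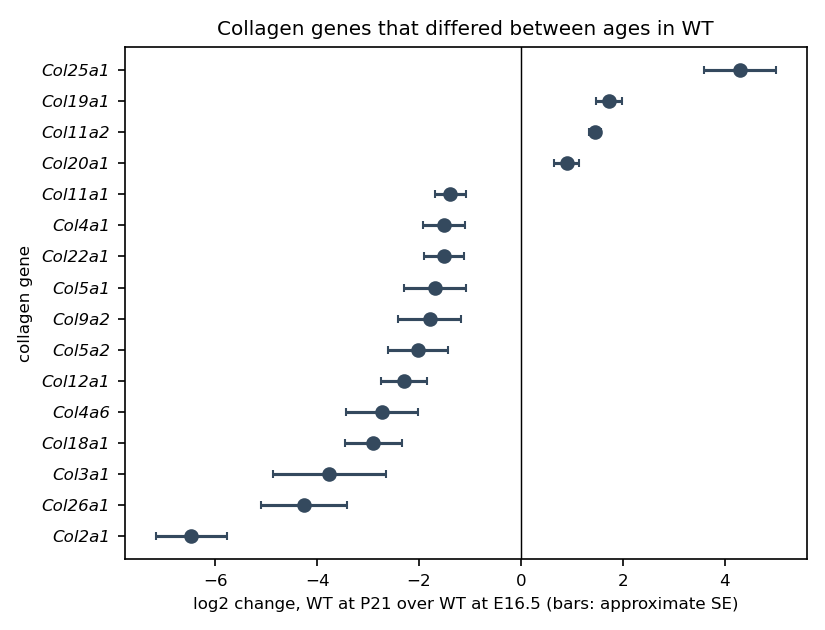
Log2 change of WT at P21 over WT at E16.5 (horizontal axis, bars: approximate SE) for the 16 collagen genes called, ordered by size. Col25a1, at 4.30, and Col2a1, at -6.47, are the ends of the range, and 12 of the 16 genes lie left of 0.

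Histone marks at collagen starts were read from the authors' deposited peak lists at 3 weeks, within 2 kb either side of the RefSeq start, which 35 of the 44 genes have. With 1 library per mark and genotype there is no replicate check and no test, and fold enrichments are the authors'. H3K4me3 peaks lay at 22 of 35 collagen starts in cKO and 19 in WT (57.0% and 55.3% of all 20933 genes with a start, against 62.9% and 54.3% of collagens). H3K27ac peaks lay at 4 starts in cKO and 2 in WT (44.4% and 30.7% of all genes, against 11.4% and 5.71% of collagens). H3K27me3 peaks lay at 19 starts in cKO and 8 in WT (12.9% and 3.54% of all genes, against 54.3% and 22.9% of collagens). Both H3K4me3 and H3K27me3 peaks lay at 16 starts in cKO and 5 in WT (9.85% and 1.94% of all genes). The cKO list of H3K27me3 holds 15659 peaks and the WT list 4124, and that of H3K27ac 24065 in cKO and 13006 in WT, so for either mark a longer list and the genotype cannot be told apart. H3K27me3 peaks in the cKO list alone lay at 11 of 35 collagens, or 31.4%, against 9.36% of all genes. The starts of Col4a5 and Col4a6 lie 1343 bp apart, and the same 567-bp peak counts for both genes here. Col4a1 and Col4a2 likewise share their H3K4me3 and H3K27ac peaks in the counts above.

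**Figure D5:**
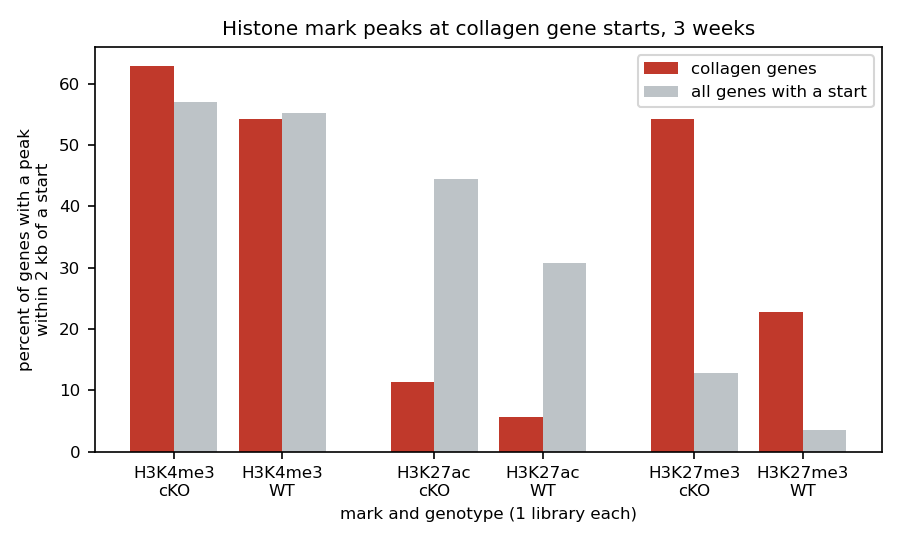
Percent of genes with a peak within 2 kb of a start for each mark, cKO left of WT, in collagen genes (red, of 35) and in all genes with a start (grey, of 20933). H3K27ac is less frequent at collagens, at 11.4% and 5.71%, and H3K27me3 more frequent, at 54.3% and 22.9%, than over all genes.

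Col4a1 and Col4a2 were the pair with H3K27ac in both genotypes. Their shared start region held H3K27ac at a fold enrichment of up to 10.9 in cKO and 5.23 in WT, H3K4me3 at up to 16.8 in cKO and 16.6 in WT, and no H3K27me3 peak. The Col4a1 window, which reaches the Col4a2 start on the other strand, and that of Col25a1, the collagen with the largest rise with age, are shown for their contrast with the CpG-free Col3a1 window.
Col4a1, chr8:11312777-11313076, minus strand: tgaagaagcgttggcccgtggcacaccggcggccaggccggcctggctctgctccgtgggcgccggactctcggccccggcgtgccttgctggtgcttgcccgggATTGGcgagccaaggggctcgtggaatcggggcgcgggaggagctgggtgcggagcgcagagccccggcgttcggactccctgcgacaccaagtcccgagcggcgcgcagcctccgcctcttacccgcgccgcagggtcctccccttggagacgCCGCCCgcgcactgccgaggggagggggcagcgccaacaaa
Col25a1, chr3:130180595-130180894, plus strand: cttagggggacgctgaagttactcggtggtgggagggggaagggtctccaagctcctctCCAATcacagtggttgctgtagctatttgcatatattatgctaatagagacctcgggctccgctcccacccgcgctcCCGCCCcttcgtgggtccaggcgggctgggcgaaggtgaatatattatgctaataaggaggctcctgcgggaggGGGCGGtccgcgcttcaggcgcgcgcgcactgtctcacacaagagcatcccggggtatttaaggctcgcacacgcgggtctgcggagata
The Col4a1 window holds 37 CpG and a CCAAT match 145 bases before the start, and the Col25a1 window holds 23 CpG and a CCAAT match 191 bases before the start. Col25a1 had H3K4me3 at a fold enrichment of 12.7 in cKO and 8.32 in WT, and, in the longer cKO lists alone, H3K27ac at 5.29 and H3K27me3 at 4.74. Collagens with an H3K4me3 peak in cKO had a median of 16 CpG (22 genes), against 5 for those without (13 genes).

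The genes called at P21 differed in their marks. Col11a2 had H3K4me3 in both genotypes, at up to 5.09 in cKO and 5.61 in WT, an H3K27ac peak in cKO alone (chr17:34039179-34039736, fold enrichment 6.61), and no H3K27me3 peak. That peak comes from the longer of the 2 acetylation lists. Col27a1 had 1 H3K27me3 peak in cKO (chr4:63213326-63217146, 12.1) where the WT list has 3 shorter peaks of 5.97, 3.48 and 5.59, and H3K4me3 at up to 8.17 in cKO and 10.7 in WT. Over their whole length the cKO peak covers 3821 bp and the WT peaks 1408 bp, and over the gene body there are 14 peaks in cKO and 3 in WT. Col5a3 had 1 H3K27me3 peak in cKO alone (5.63) and no other mark near its start, and in its gene body a 226-bp H3K27ac peak was listed in cKO alone (5.20). Col3a1 had no peak of any mark near its start in either genotype. The remaining interstitial genes with a start, Col1a2 and Col5a1, had H3K4me3 in both genotypes, and H3K27me3 in both genotypes for Col1a2 (6.92 in cKO and 3.97 in WT) and in cKO alone for Col5a1 (7.96).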

How the data were processed

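Values used were estimated counts per gene from 10 hippocampal RNA libraries, deposited by the authors and made with Salmon 1.0.0 on GRCm38, per the submitters' processing notes. How transcripts were summed into genes, whether counting used strand, and the sequencing filters are not given in the sources used here. Between 20.8% and 22.5% of the values were not whole, and they were rounded before testing. The authors' deposited result tables hold log2 fold changes, p-values and a mean normalised count and test statistic, treated as score columns, which the submitters' processing notes credit to DESeq2 1.26.0. Their P21 and E16.5 tables give a p for all 44 collagens. Peaks were called from 1 ChIP-seq library each against the input of that genotype with MACS 2.2.7.1 at a q limit of 0.01, per the file headers, whereas the submitters' processing notes name MACS2 2.2.5, with alignment by Bowtie2 2.3.5.1. The authors' deposited peak lists give a pileup signal, −log10 p and q values and a fold enrichment ratio per peak, from 17399169 to 19291198 tags.

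Here edgeR 4.0.16 (TMM scaling, its default low-count filter, robust quasi-likelihood test, Benjamini-Hochberg adjustment over all genes tested) in R 4.3.3 compared cKO with WT within each age. A fit of all 10 libraries gave the difference of the cKO effects and the WT change with age. SEs were taken from the test's F value. CPM are counts over the TMM-scaled library. P-values measure the spread between libraries, described as biological replicates in the series' design. Alternatives were DESeq2 1.42.0, other scalings, no filter, a joint fit, a replicate block and each library left out. On simulated counts the test made more false calls than the nominal rate within each age. Peaks were matched to RefSeq starts of GRCm38.p6 with Python 3.11.15 and pandas 2.3.3.

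The members and lists were chosen with earlier results of these data known. Genes named are collagens past the threshold in a cKO comparison or in the difference between ages, the 10 largest called age changes in each direction, 11 preset collagens, and up to 3 called members of a list or the closest. Exceptions are marked as chosen after their values were seen.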

Additional observations from a re-analysis of the deposited data

Results flagged for a closer look

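Both results below stand out because the cKO effect itself differed between P21 and E16.5 in the fit of all 10 RNA libraries. For Col11a2, a type XI collagen chain, the effect at P21 minus that at E16.5 was -1.67 on the log2 scale (SE 0.18, edgeR adjusted p = 0.0137). Its level averaged 11.9 ± 1.34 CPM in cKO and 29.5 ± 1.64 CPM in WT at P21 (SD, n = 2 each), and 15.3 ± 0.316 CPM in cKO and 12.2 ± 1.54 CPM in WT at E16.5 (SD, n = 3 each). Both P21 cKO libraries lay below both WT libraries, and the 3 E16.5 cKO libraries lay above the 3 WT libraries. For Timp2, a metalloproteinase inhibitor, the same difference was 1.45 (SE 0.21, edgeR adjusted p = 0.0296), with cKO above WT in both P21 libraries and below WT in all 3 E16.5 libraries. The call of Timp2 was lost without any 1 of 6 of the 10 libraries (adjusted p of 0.0557 to 0.116), and that of Col11a2 without P21 cKO replicate 2 or either P21 WT library (0.0551 to 0.0690). Age and the run that made each table cannot be told apart, and the cause was not tested.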

How the results depend on the processing

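Of 1140 recomputed values of the 23 named collagens, 1047 kept their sign and their side of the threshold, 45 lost a call, 23 gained one and 25 changed sign. Most of these values are of genes not called in the main fit, which cannot lose a call, so the pooled count does not measure how well calls held. At E16.5 no collagen was called, and none of 276 values could lose a call. At P21, with 4 collagens called and 10 alternatives, 14 values lost a call, some in fits with 1 library in a genotype. Counts of called members in the partner and marker lists were within 1.5 times in 1234 of 1400 cases. At P21, collagens higher in cKO numbered 0 in the joint fit and 0 to 4 with a library left out. Those lower numbered 1 with upper-quartile scaling, 6 with no filter, 1 in the joint fit and 1 to 4 with a library left out. With upper-quartile scaling all genes split into 570 higher and 519 lower at P21, against 489 and 680, and the difference between ages into 97 and 97, against 81 and 140. At E16.5 DESeq2 called 10 lower, and 2 collagens had a higher effect at P21 than at E16.5, against 0 by edgeR. Those with a lower effect numbered 0 to 1 with a library left out. Collagens lower in WT at P21 than at E16.5 numbered 7 with no filter and 5 to 17 with a library left out. H3K27ac peaks lay in 7 cKO collagens when gene bodies replaced starts. H3K27me3 peaks lay in 13 WT collagens over gene bodies and at 5 with a −log10 q of at least 5. The causes were not tested.

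Over all tested collagens 50 of 2004 recomputed values changed sign, 24 of them at P21 and 9 of those without cKO replicate 1, where Col6a5 was -0.45 in place of 0.81, Col8a1 -0.53 in place of 0.39 and Col6a3 -0.28 in place of 0.60. With upper-quartile scaling Col5a2 was 0.042, Col9a2 0.013 and Col5a1 0.0026 at P21, and Col11a1 was 0.0037 in the difference. At E16.5 Col22a1 was 0.0017 with no filter, 0.0030 with DESeq2, 0.0071 in the joint fit and 0.068 with the replicate block. With libraries left out, P21 values ran from -0.11 to 0.42 for Col25a1, -0.28 to 0.22 for Col5a2 and -0.43 to 0.25 for Col5a1. E16.5 values ran from -1.62 to 0.14 for Col25a1, -0.0099 to 0.50 for Col2a1 and -0.26 to 0.33 for Col22a1. Differences ran from -0.31 to 0.23 for Col11a1, -0.033 to 1.72 for Col25a1 and -0.98 to 0.0064 for Col27a1. WT age changes ran from -1.34 to 0.60 for Col6a1 and -0.91 to 0.32 for Col23a1.

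After the mean of each genotype was taken out, same-numbered libraries correlated at -0.25, -0.063 and -0.53 at E16.5. At P21 the value was -0.0053 in both pairs, which with 2 libraries per genotype are mirror images by construction. Such values cannot decide whether same-numbered libraries were paired. With the replicate block 1 collagen was higher and 2 lower at P21, and 0 were called in either direction at E16.5. With 2 libraries per genotype at P21, collagens of under 1 CPM rest on about 20 counts, and changes there were detectable only where large.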
